A study of Homo sapiens with 15 samples.

Results

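Thymosin beta 10 (TMSB10), a small protein that binds actin monomers, gave one of the lowest overexpressing-to-knocked-down ratios on the miR-629* arrays, and it was examined here with 7 genes that handle the same actin monomers, namely TMSB4X, PFN1, PFN2, CFL1, CFL2, ACTB and ACTG1. The members were every probe annotated with one of these 8 gene names, which gave 18 of the 41000 probes and 8 of the 30484 gene names on the array. The set was chosen by the TMSB10 ratio on the miR-629* arrays, and the 7 other genes by their role. All miR-629* values are therefore given as a description without a test, and tests were run only on the 4 other miRNAs.

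The arrays hold A549 cells, an established human lung adenocarcinoma line, transfected for miR-629*, miR-766, miR-181d, miR-574-3p or miR-565 with 3 dual-channel arrays each, 15 in all. One arm of each array received a synthetic precursor of the miRNA (miCENTURY OX miNatural, called overexpressing, Cy5) and the other an antisense oligonucleotide against the same miRNA (miRCURY KD, an antagomir, called knocked down, Cy3), both at 20 nM, and RNA was taken 24 h later. No dye was swapped, so the dye and the arm cannot be told apart within a miRNA. Every group was transfected, mock-transfected cells were not analysed here, and the labels number the replicates without saying whether they were separate transfections, so p-values measure only the spread between these arrays.

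Actin exists as free monomers and as filaments, and cells keep a large monomer pool that is ready for assembly. Beta-thymosins such as TMSB10 and TMSB4X hold monomers in reserve, profilins (PFN1, PFN2) deliver them to growing filament ends, and cofilins (CFL1, CFL2) sever and disassemble old filaments and so return monomers to the pool. The free monomer pool also controls the coactivators MRTF-A and MRTF-B, which drive serum response factor (SRF) and its targets, actin genes among them.

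The miRNA sequences are shown because a miRNA pairs with its targets mainly through its seed, bases 2 to 8, which are in capitals here. They were taken from RefSeq with positions on GRCh38.p14. No sequence is shown for miR-565 and miR-766.
miR-629* (miR-629-3p, chr15:70079387-70079408, minus strand): gUUCUCCCaacguaagcccagc
miR-574-3p (chr4:38868092-38868113, plus strand): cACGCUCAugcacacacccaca
miR-181d (miR-181d-5p, chr19:13874910-13874932, plus strand): aACAUUCAuuguugucggugggu
The 3 seeds differ from each other. The complement of the miR-629* seed, GGGAGAA, was looked for in the 60-base probes on the strand of the mRNA and was in 0 of the 18 member probes and 0.654% of all probes. The complements of the other seeds, TGAGCGT for miR-574-3p and TGAATGT for miR-181d, were in 0 of the 18 member probes too, against 0.132% and 0.893% of all probes. A probe covers only 60 bases of its transcript and the rest was not searched here.

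The 18 member probes were all well above background in both channels on all 15 arrays. From 68.1% to 75.5% of an array's probes passed the same background test in a channel, and no spot was saturated. The keratins KRT8 and KRT18 (brightest probes at 41100 to 190000 signal units) and the enzymes AKR1B10, AKR1C1 and ALDH1A1, which are known to be high in A549, were bright in both channels of the 15 arrays, whereas the defining markers of leukocytes (PTPRC), endothelium (PECAM1, CDH5) and heart muscle (MYH6) were not well above background on any array. CD3E, COL1A1 and ALB were dim but above background on all 15, and the summed signal of the 10 markers of other cell types stayed between 129 and 216 in every group and channel. Replicate 1 of miR-565 stood apart, since its log2 ratios had an SD of 0.94 over all probes against 0.29 to 0.53 on the 14 other arrays. Some results that rest on it are given with and without it, and the other miR-565 results include it. The arrays lay on 4 slides, and miR-766 had a slide of its own, so that slide and miRNA cannot be told apart there.

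TMSB10 was represented by 1 probe, whose 60 bases span 344 bases of chromosome 2 (84986309 to 84986652, NCBI36, plus strand) and so cross an intron of the gene (NM_021103). A run of 32 bases of the probe starts 19 bases after the RefSeq transcription start, so the probe reads the 5′ end of the mRNA. On the 3 miR-629* arrays its log2 ratio of overexpressing to knocked-down signal was -1.54, -2.08 and -1.81, with a mean of -1.81 ± 0.27 (SD, n = 3). All 3 arrays were far below the other 12, on which the ratio ran from -0.30 to 0.21 with a median of -0.11, and the ranges did not overlap. This mean was the 22nd lowest of the 23018 genes measured for miR-629*.

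The signals of the separate channels show on which side the TMSB10 difference lay. In cells with the miR-629* antagomir the TMSB10 signal was 71352, 99127 and 69490 units in replicates 1 to 3. The same channel gave 20829 to 38108 units, with a median of 28439, on the 12 arrays of the other antagomirs. Thus the cells with the miR-629* antagomir had the 3 highest TMSB10 signals of the 15, with no overlap. TMSB10 was chosen by its ratio on these arrays. How many other genes had no overlap, in this channel or in the ratio, was not counted. In cells overexpressing miR-629* the signal was 24482, 23433 and 19824 units, inside the 18744 to 36142 units (median 25297) of cells overexpressing the other miRNAs. After quantile normalization within each dye, the log2 signal of TMSB10 in the miR-629* antagomir cells was 1.65 higher than the mean of the 4 other antagomirs, a 3.13-fold difference, while the overexpressing channel differed by -0.04. For the 7 other members the same differences ran from -0.05 to 0.09 in the knocked-down channel and from -0.05 to 0.06 in the overexpressing channel.

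**Figure D1:**
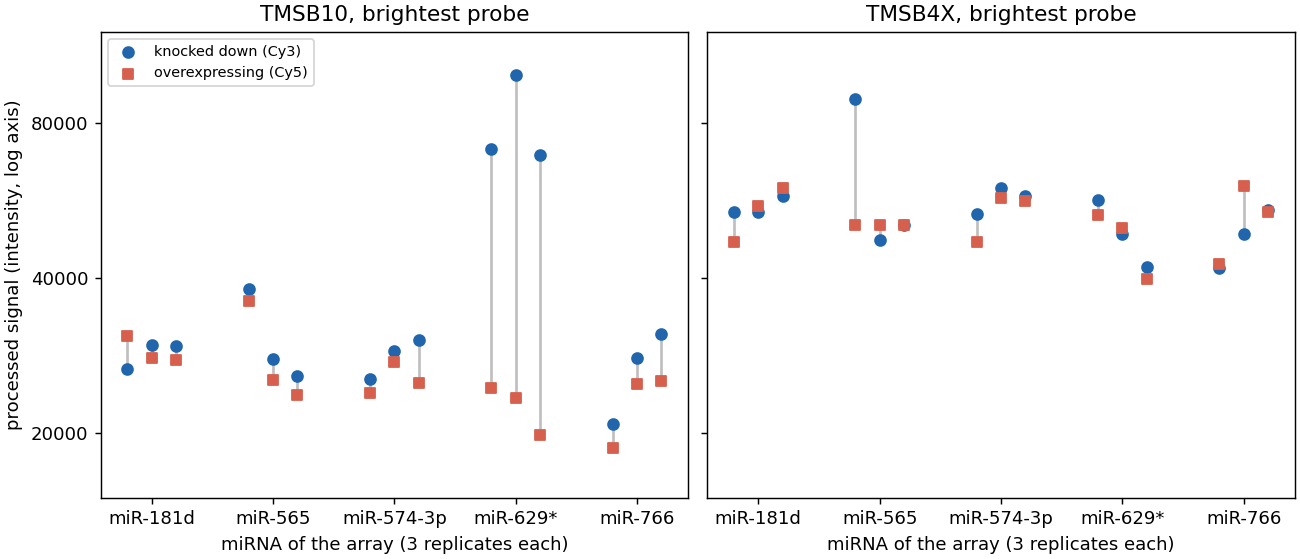
Processed signal (log axis) of the brightest TMSB10 and TMSB4X probes on each of the 15 arrays, with circles for knocked-down cells (Cy3), squares for overexpressing cells (Cy5) and a line joining the channels of an array. The 3 TMSB10 circles of miR-629*, at 69490 to 99127, lie above all other TMSB10 points, and the TMSB4X circle of miR-565 replicate 1, at 89047, lies apart from the other arrays. Signals of different probes are not comparable as levels of the genes.

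**Figure D2:**
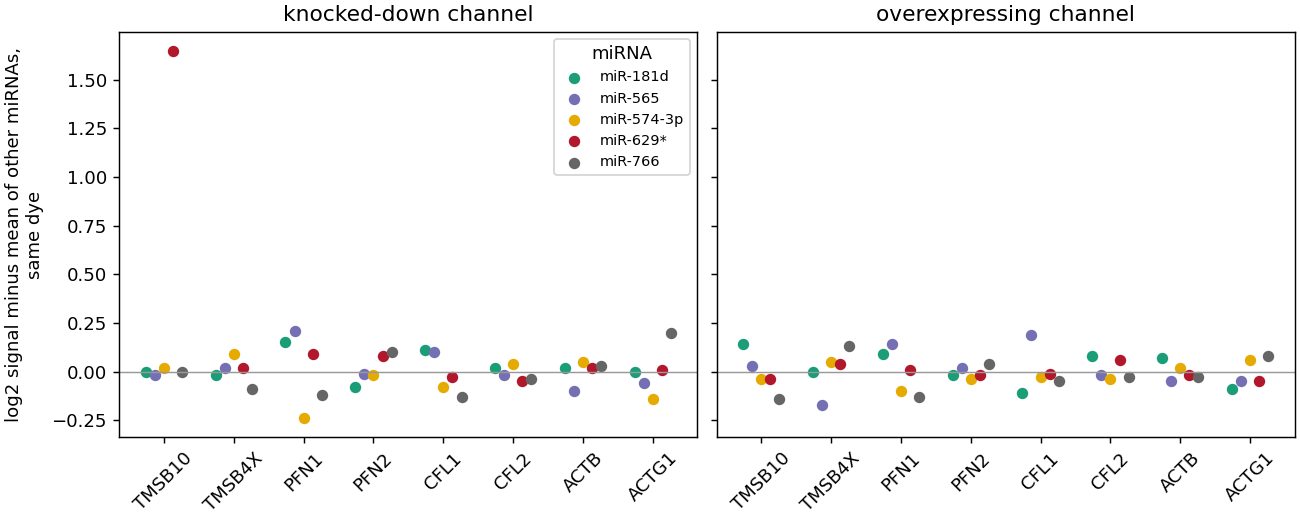
Difference of the log2 signal of each member between a miRNA and the mean of the other miRNAs in the same dye (for miR-629* the 4 others, for the rest the 3 others without miR-629*), in the knocked-down channel (left) and the overexpressing channel (right). TMSB10 of miR-629* in the knocked-down channel, at 1.65, is the one point outside -0.24 to 0.21.

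On the arrays of the 4 other miRNAs, TMSB10 was not called for any, and 1 of the 4 had an unadjusted p under 0.05. Its mean log2 ratio was 0.01 ± 0.17 for miR-181d, -0.11 ± 0.033 for miR-565, -0.15 ± 0.12 for miR-574-3p and -0.21 ± 0.083 for miR-766 (SD, n = 3 each). The lowest of these, that of miR-766, had a 95% interval of -0.39 to -0.02 and an adjusted p of 0.235 (limma, Benjamini-Hochberg over all probes tested). The 6 differences of the TMSB10 ratio between pairs of these 4 miRNAs had 95% intervals that lay within -0.22 to 0.48. Replicate 3 of miR-574-3p shared slide 3 with the miR-629* arrays and gave -0.28, against -1.81 for the mean of miR-629* on that slide.

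TMSB4X encodes thymosin beta 4, the abundant relative of TMSB10 with the same role. Its brighter probe (chromosome X, 12904315 to 12904374, NCBI36) gave log2 ratios of -0.10, 0.04 and -0.08 on the miR-629* arrays, among the values of the other miRNAs. The knocked-down signal in these replicates was 56735, 48696 and 41980 units, inside the 41943 to 89047 units of the other arrays. The rise of TMSB10 in the miR-629* antagomir cells thus had no counterpart in the signal of TMSB4X. The TMSB4X probe on the other 12 arrays ran from -0.81 to 0.31, and the lowest value was that of miR-565 replicate 1, where the knocked-down signal was 89047 and the overexpressing signal 50793. The other replicates of miR-565 gave 0.10 and 0.00.

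Both probes annotated TMSL3, a near copy of TMSB4X, overlap each other and lie on chromosome X past the TMSB4X probe, the nearer by 539 bases. On miR-565 replicate 1 they gave log2 ratios of -0.79 and -0.83, as low as the bright TMSB4X probe, whereas the TMSB4X probe 919 bases upstream gave -0.08. The mean TMSB4X ratio of miR-565 was -0.24 with all 3 arrays (adjusted p = 0.197 in limma), and the SD of 0.5 was set by the same array. That upstream probe was dim, with signals of 104 to 172 units. It was lower in the overexpressing channel on all 15 arrays (-0.49 to -0.04) and was called lower for miR-574-3p (-0.42 ± 0.059, SD, n = 3) and miR-181d (-0.29 ± 0.042), unlike the bright probe. The adjusted p of these was 0.00736 and 0.0445 (limma).

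At an adjusted p under 0.05 (limma, Benjamini-Hochberg, 23018 genes, brightest probe per gene), 4 of the 8 members were called for miR-181d, 4 for miR-565, 3 for miR-574-3p and 3 for miR-766. Among all genes, 6.35% were called for miR-181d, 14.4% for miR-565, 5.49% for miR-574-3p and 2.30% for miR-766. The genes called higher in the overexpressing channel were CFL2, ACTB and ACTG1 for each of the 4 miRNAs, where 3.68% (miR-181d), 9.70% (miR-565), 2.82% (miR-574-3p) and 1.56% (miR-766) of all genes were called higher. CFL1 was the one member called lower, for miR-181d and miR-565, where 2.67% and 4.67% of all genes were called lower, and none was called lower for miR-574-3p and miR-766, where 2.67% and 0.743% of all genes were (limma, with CFL1 for both and TMSB10 for miR-766 at an unadjusted p under 0.05). With each array centred on its median, CFL1 was called lower for all 4 miRNAs and PFN1 for miR-565, beside the same 3 genes called higher. Of all genes, the centred fit called 1049 lower and 843 higher for miR-181d, and 1441 and 1689 for miR-565. For miR-574-3p it called 804 and 747, and for miR-766 314 and 388. With the probes of a gene averaged instead, ACTB was called for none of the 4 miRNAs and ACTG1 only for miR-574-3p. The median log2 ratio of the members was 0.04, -0.02, 0.02 and 0.04 for miR-181d, miR-565, miR-574-3p and miR-766, against 0.02, 0.04, 0.01 and 0.01 over all genes, so the members did not share a direction. Fewer members were called when slide entered the fit. Since miR-766 had a slide of its own and all miR-181d arrays lay on slide 1, this fit cannot separate slide from miRNA there. With slide as a random block, CFL1 for miR-181d and ACTG1 for miR-574-3p were called (adjusted p = 0.0354 and 0.0126), and no other member was. The calls over all genes went from 1462 to 1322 for miR-181d, from 3307 to 30 for miR-565, from 1263 to 107 for miR-574-3p and from 529 to 0 for miR-766. The ratios of CFL2 and ACTB changed little under the block (0.25 to 0.33 and 0.29 to 0.36). The counts also fell when single arrays were left out, as 2 members were called for miR-181d without replicate 1 or without replicate 2, 1 for miR-574-3p without replicate 2 or without replicate 3, and 0 for miR-766 without replicate 1 or without replicate 2. Over all genes, 114 and 184 were then called for miR-181d, 241 and 495 for miR-574-3p and 43 and 93 for miR-766.

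**Figure D3:**
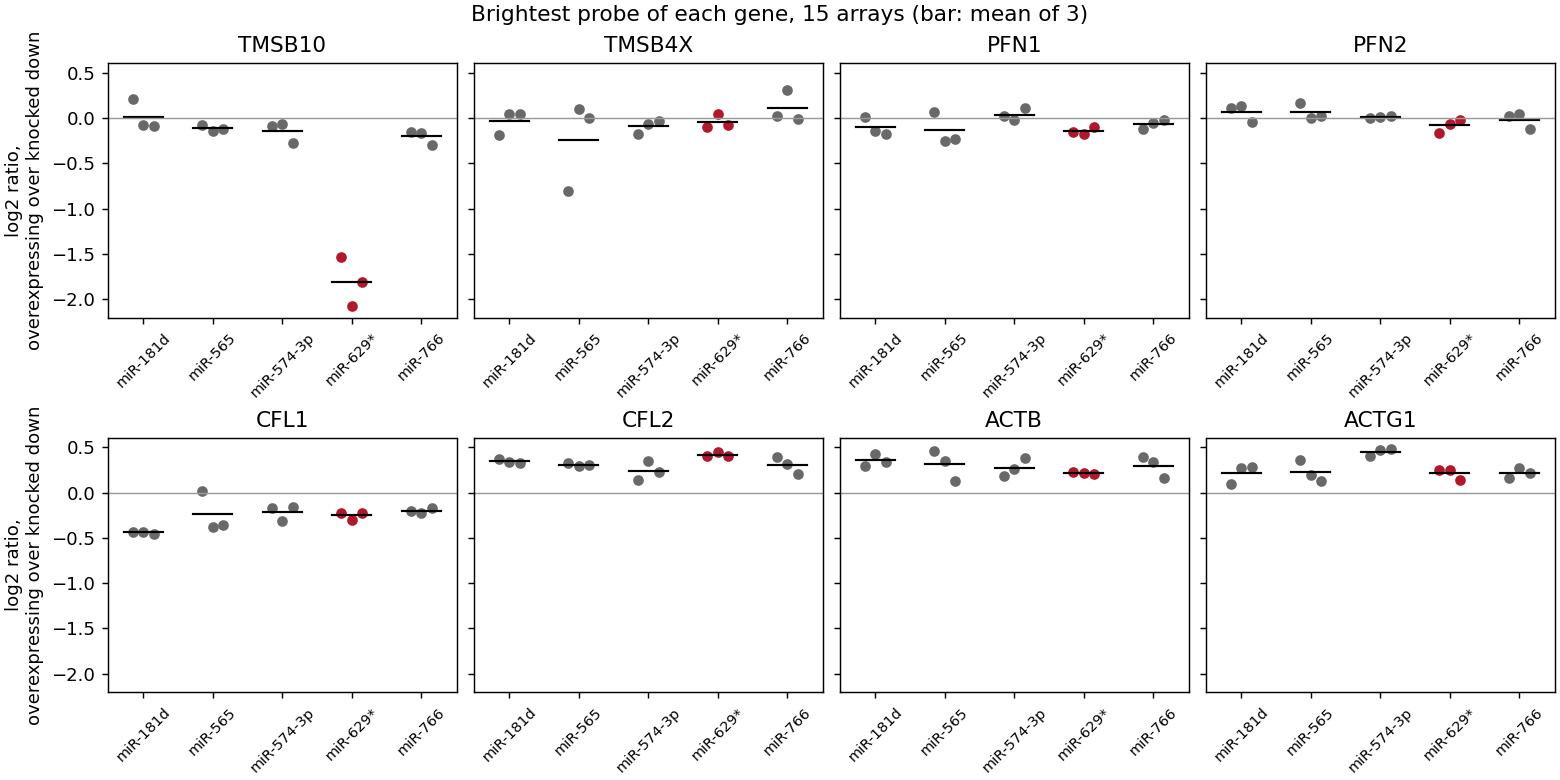
Log2 ratio of overexpressing to knocked-down signal for the brightest probe of each member, with a point per array (miR-629* in red) and a bar for the mean of 3 arrays. TMSB10 is near -1.81 for miR-629* and between -0.30 and 0.21 elsewhere, CFL2, ACTB and ACTG1 are above 0 on all 15 arrays, and CFL1 is below 0 on 14 of 15.

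The cofilins moved in opposite directions. CFL1, the main cofilin of non-muscle cells, had log2 ratios of -0.43, -0.43 and -0.46 for miR-181d, 0.02, -0.38 and -0.36 for miR-565, -0.17, -0.31 and -0.16 for miR-574-3p, -0.22, -0.30 and -0.23 for miR-629* and -0.20, -0.23 and -0.17 for miR-766. Only replicate 1 of miR-565 was not below 0. For miR-181d the mean was -0.44 ± 0.016 (SD, n = 3, adjusted p = 0.0035) and for miR-565 it was -0.24 ± 0.23 (adjusted p = 0.0325, limma). The miR-565 value was -0.37 without replicate 1, and it was not called without replicate 2 or replicate 3 (-0.17 and -0.18, adjusted p = 0.0987 and 0.105). The means of miR-574-3p and miR-766, -0.21 and -0.20, did not pass (adjusted p = 0.0801 and 0.132). Without miR-565 replicate 1, which enters the common estimate of the spread, CFL1 was called for both (adjusted p = 0.000429 and 0.00102). A second CFL1 probe, 459 bases nearer the 3′ end, read lower than the first on all 15 arrays, with means of -0.52, -0.34, -0.33 and -0.30 for miR-181d, miR-565, miR-574-3p and miR-766 and -0.34 for miR-629*. This probe was called for miR-181d, miR-565 and miR-574-3p (adjusted p = 0.00277, 0.014 and 0.0176, limma) and not for miR-766 (adjusted p = 0.0514).

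CFL2, the cofilin best known from muscle, had log2 ratios of 0.37, 0.34 and 0.33 for miR-181d, 0.33, 0.29 and 0.31 for miR-565, 0.14, 0.35 and 0.23 for miR-574-3p, 0.41, 0.45 and 0.40 for miR-629* and 0.39, 0.32 and 0.21 for miR-766. All 15 arrays were above 0. The means of the 4 tested miRNAs were 0.35 ± 0.017, 0.31 ± 0.017, 0.24 ± 0.10 and 0.31 ± 0.09 (SD, n = 3 each), with adjusted p values of 0.00263, 0.0034, 0.0112 and 0.00636 in limma. CFL2 was higher than CFL1 in the same ratio on 15 of 15 arrays, by 0.30 to 0.80 with a median of 0.64. The smallest gap was that of miR-565 replicate 1. Both CFL2 probes, which lie 1780 bases apart, were alike on most arrays, but on miR-565 replicate 1 the second probe gave -0.37 where the first gave 0.33. The second probe was called for miR-181d (0.39, adjusted p = 0.041) and not for miR-565, miR-574-3p or miR-766 (0.11, 0.29 and 0.34, adjusted p = 0.454, 0.129 and 0.108).

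A shared direction over the 5 miRNAs has a limit that the design sets. The overexpressing arm was always Cy5, so a ratio that is similar for all 5 miRNAs cannot be told apart from a preference of the probe for one dye. The TMSB10 difference between miR-629* and the other miRNAs was taken between arrays within each dye.

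ACTB encodes beta-actin and ACTG1 gamma-actin, the cytoplasmic actins that make up the monomer pool. The brightest ACTB probe (chromosome 7, 5533313 to 5533372, NCBI36) gave log2 ratios of 0.30, 0.43 and 0.34 for miR-181d, 0.46, 0.35 and 0.13 for miR-565, 0.18, 0.26 and 0.38 for miR-574-3p, 0.23, 0.22 and 0.21 for miR-629* and 0.39, 0.34 and 0.16 for miR-766. It was above 0 on all 15 arrays and was called for the 4 tested miRNAs (means of 0.27 to 0.36, adjusted p from 0.00627 to 0.0247 in limma). The other 3 ACTB probes did not show this. Their means over 3 arrays ran from -0.20 to 0.20, and the probe printed in 10 spots per array, the one with the least error, had means of 0.01, -0.01, 0.02 and 0.02 for miR-181d, miR-565, miR-574-3p and miR-766 and -0.01 for miR-629*. One of the 3, for miR-565, was called in the opposite direction at -0.20 ± 0.09 (SD, n = 3, adjusted p = 0.038). With the 4 probes averaged, ACTB stood at -0.02 for miR-565 and -0.04 for miR-629*, so that its direction there depended on the probe. The average was 0.06, 0.13 and 0.07 for miR-181d, miR-574-3p and miR-766. ACTB was then called for none of the 4 tested miRNAs (adjusted p from 0.177 to 0.843 in limma).

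ACTG1 had log2 ratios at its brightest probe (chromosome 17, 77091609 to 77091659, NCBI36) of 0.10, 0.27 and 0.28 for miR-181d, 0.36, 0.20 and 0.13 for miR-565, 0.40, 0.47 and 0.48 for miR-574-3p, 0.25, 0.25 and 0.14 for miR-629* and 0.16, 0.27 and 0.22 for miR-766. The 3 values of miR-574-3p were the highest of the 15 arrays. Its mean there was 0.45 ± 0.039 (SD, n = 3, adjusted p = 0.000164), and the means of the 3 other tested miRNAs were 0.22, 0.23 and 0.22 (adjusted p from 0.0115 to 0.0333, limma). A second ACTG1 probe was called for miR-574-3p too, at 0.29 ± 0.089 (adjusted p = 0.00647). It was not called for miR-181d, miR-565 or miR-766, at 0.12, 0.12 and 0.18 (adjusted p = 0.2, 0.133 and 0.107, limma). The third, the farthest upstream, was at 0.09 for miR-574-3p and between -0.15 and -0.07 for the 4 other miRNAs, and was not called for any tested miRNA. With the 3 probes averaged, ACTG1 was still called for miR-574-3p, at 0.28 (adjusted p = 0.00498, limma). It was then not called for miR-181d, miR-565 or miR-766, at 0.08, 0.07 and 0.11 (adjusted p = 0.338, 0.306 and 0.289).

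For both actins the ratio was highest near the 3′ end of the mRNA on most arrays. The 3′-most ACTB probe was the highest of 4 on 15 of 15 arrays, and the gap between the highest and the lowest probe was 0.06 to 0.57 with a median of 0.42. The 5′-most ACTB probe was the lowest on 0 of 15, so the upstream ACTB probes did not follow this order. For ACTG1 the 3′-most probe was the highest of 3 on 13 arrays and the 5′-most the lowest on 15, with a gap of 0.22 to 0.48. The same order, 3′ probe higher, held on 15 of 15 arrays for PFN2 and 14 of 15 for TMSB4X, on 12 for CFL2, on 6 for PFN1, whose probes nearly coincide, and on 0 for CFL1. TMSB10 had no second probe. Longest shared runs between an ACTB and an ACTG1 probe were 7 bases. Probes were compared only with each other, so whether a probe of one actin also reads the transcript of the other was not tested. Both genes have many near-identical processed copies in the genome, whose transcripts such probes may also bind.

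**Figure D4:**
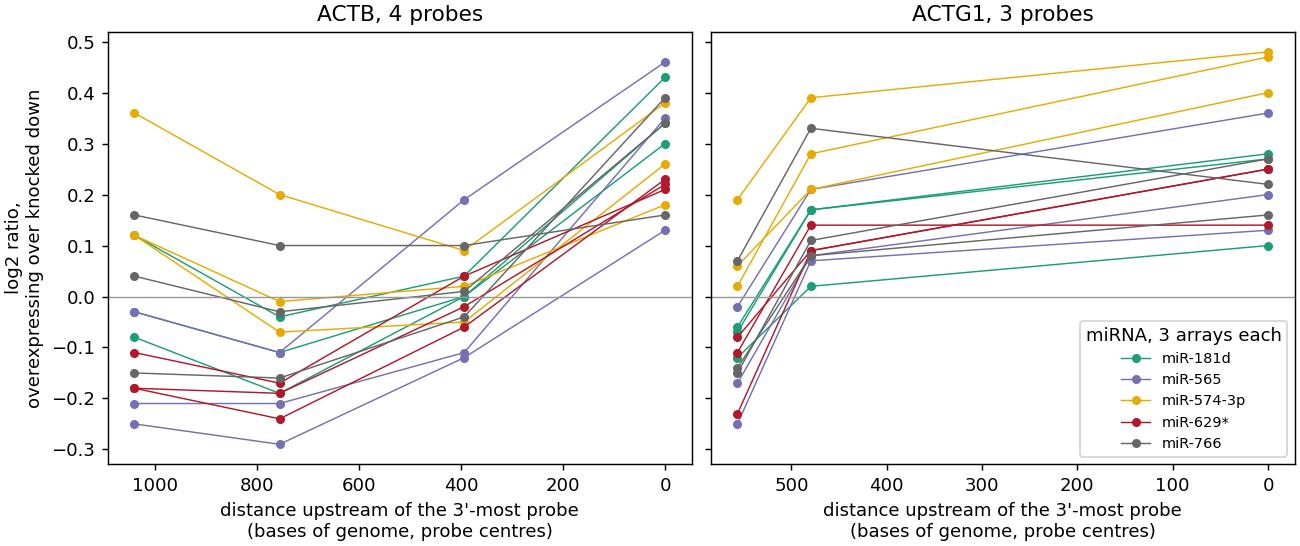
Log2 ratio of overexpressing to knocked-down signal against the distance of each probe upstream of the 3′-most probe (bases of genome between probe centres) for ACTB, with 4 probes, and ACTG1, with 3, and a line for each of the 15 arrays colored by miRNA. All ACTB lines end at 0.13 to 0.46 at the 3′-most probe and scatter around 0 upstream, and all ACTG1 lines start lowest at the 5′-most probe.

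Since ACTG1 is a known target of SRF, the promoter windows of the members (250 bases before to 50 after the RefSeq start, GRCh38.p14) were searched for the CArG box, the site that SRF binds. RefSeq windows were matched for TMSB10, TMSB4X, PFN1, CFL1, CFL2 and ACTG1, and the ACTG1 window held 1 match, 94 bases before the start. Over all promoter windows, 454 of 35116 (1.29%) held one. The match is shown in capitals, with the sequence on the strand of the gene.
ACTG1 (chr17:81512874-81512903, minus strand): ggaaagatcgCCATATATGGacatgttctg
A match is not evidence of binding in these cells.

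PFN1 and PFN2 encode profilins, PFN1 the common form and PFN2 a form best known from neurons. Neither was called in the ratio for any of the 4 miRNAs, and 1 of the 8 tests had an unadjusted p under 0.05 (PFN1 for miR-565, adjusted p = 0.116 in limma). The mean log2 ratios of PFN1 were -0.11, -0.14, 0.04 and -0.07 for miR-181d, miR-565, miR-574-3p and miR-766, and for miR-629* -0.14 ± 0.038 (SD, n = 3). PFN2 stayed between -0.16 and 0.17 on the 15 arrays. The PFN1 probes share 48 of 60 bases and differed by at most 0.07 on an array, so they are close to a repeat measurement.

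Comparing each antagomir with the 3 other antagomirs in the same dye, without miR-629*, 3 of 32 combinations of member and miRNA were called (limma, adjusted p under 0.05). The share of all genes called was 3.58% for miR-181d, 3.16% for miR-565, 7.85% for miR-574-3p and 5.59% for miR-766. PFN1 was higher in miR-565 antagomir cells by 0.21 ± 0.044 (SE, log2, adjusted p = 0.016), where its knocked-down signals were 18059, 13828 and 12456. In miR-574-3p antagomir cells PFN1 was lower by 0.24 on the same scale (log2 difference of -0.24 ± 0.044, SE, adjusted p = 0.00249), with signals of 9720, 11724 and 10684. The PFN1 signals of miR-181d antagomir cells, 12938, 13856 and 13871, lay inside the miR-565 range (shift of 0.15, adjusted p = 0.0743, limma). Those of miR-766, 9620, 11752 and 11469, overlapped the miR-574-3p signals. The 18059 of miR-565 is its replicate 1, and the PFN1 shift without that array is not given here. ACTG1 was higher in miR-766 antagomir cells by 0.20 ± 0.048 (SE, adjusted p = 0.0283, limma), and this is the miRNA with a slide of its own. Before quantile normalization its knocked-down signals there were 81054, 116953 and 115744. Their mean of 104584 lay among those of miR-181d, miR-565 and miR-574-3p (104558, 108567 and 95038). The 3 called shifts were smaller than the 1.65 of TMSB10 for miR-629*, a gene chosen by its ratio on those arrays.

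In the overexpressing channel 0 of 32 combinations were called, 5 had an unadjusted p under 0.05 in limma, and the largest shift was 0.19 in size. The share of all genes called there was 0% for miR-181d, miR-565 and miR-574-3p and 0.300% for miR-766. Between pairs of the 4 miRNAs the ratio of a member passed the test in 0 of 48 combinations, with 6 at an unadjusted p under 0.05 and a smallest adjusted p of 0.205 (limma). Among all genes, 0.0782% (miR-181d against miR-565), 0.556% (miR-181d against miR-574-3p), 0% (miR-181d against miR-766), 0.856% (miR-565 against miR-574-3p), 0.0912% (miR-565 against miR-766) and 0.243% (miR-574-3p against miR-766) were called. The largest gap in a mean ratio was 0.34 in size, between miR-565 and miR-766 for TMSB4X (-0.34, 95% interval -0.73 to 0.05), and it rested on miR-565 replicate 1.

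Pair differences changed without that array, and 5 were then called. Among these, CFL1 was lower for miR-181d than for miR-574-3p and miR-766 by 0.23 and 0.24 (adjusted p = 0.00875 and 0.0499), and ACTG1 was higher for miR-574-3p than for miR-181d and miR-565 by 0.23 and 0.28 (adjusted p = 0.0279 and 0.0293, limma). The fifth was PFN1, lower for miR-565 than for miR-574-3p by 0.28 (adjusted p = 0.0234, limma). The share of all genes called per pair in that fit was not counted. Its calls over all genes for single miRNAs rose too, from 1462 to 6482 for miR-181d and from 1263 to 5319 for miR-574-3p. For miR-766 they went from 529 to 4484. Within slide 2, which held 2 arrays each of miR-565 and miR-574-3p, the ACTG1 ratio was 0.17 for miR-565 and 0.44 for miR-574-3p, and the PFN1 ratio was -0.24 and 0.00.

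The genes whose log2 ratio followed that of TMSB10 most closely over the 15 arrays, among 19214 genes above background in both channels throughout, were UBE2F (Pearson's r = 0.956), a conjugating enzyme for the ubiquitin-like protein NEDD8, GABARAPL2 (0.95), an autophagy protein, HSBP1 (0.948), a binding partner of heat shock factor, TMEM85 (0.945), a subunit of a membrane protein complex of the endoplasmic reticulum, and C1orf123 (0.945). These 15 points share channels, dyes and the 3 miR-629* arrays, which set most of the likeness. Without the miR-629* arrays, r was 0.28, -0.11, 0.79, 0.55 and 0.58 in the same order. The size of the difference was also smaller than that of TMSB10. TMEM85 had ratios of -0.77, -0.96 and -0.94 on the miR-629* arrays against -0.49 to -0.09 elsewhere, and UBE2F -0.18, -0.24 and -0.23 against -0.05 to 0.06. Of the members, PFN2 ranked nearest to TMSB10 (r = 0.54, rank 212), TMSB4X had r = -0.09 and CFL2 r = -0.55. Without the miR-629* arrays these were 0.55, -0.29 and 0.46, so the sign for CFL2 was set by the miR-629* arrays.

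A list of 88 other genes of actin monomer handling, filament assembly and MRTF-SRF control was read beside the members, of which 87 were on the array and 85 were tested. For miR-181d 8 were called lower and 6 higher, for miR-565 8 and 10, for miR-574-3p 2 and 8, and for miR-766 1 and 3. Among all genes 6.35%, 14.4%, 5.49% and 2.30% were called in the same order. The median log2 ratio of the list was 0.00, 0.02, 0.00 and 0.01, against 0.02, 0.04, 0.01 and 0.01 over all genes. Leaving out each array of the miRNA in turn gave 2 to 3 called list genes for miR-181d, 2 for miR-574-3p, 0 to 3 for miR-766 and 20 to 30 for miR-565. The calls over all genes were then 114 to 413, 241 to 495, 43 to 192 and 3747 to 6409. Without miR-565 replicate 1, 39 were called for miR-181d, 32 for miR-574-3p and 28 for miR-766, while the calls over all genes rose to 6482, 5319 and 4484. The split moved with the scaling. For miR-565 it was 10 lower and 4 higher with each array centred on its median and 9 and 7 with normexp correction and loess, and for miR-181d it was 9 and 7 and 10 and 5 under the same scalings. Of all genes, 1441 were called lower and 1689 higher for miR-565 after centring, and 1329 and 1528 after normexp and loess. For miR-181d these were 1049 and 843, and 1242 and 848.

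Among the genes nearest in function to the cofilins, DSTN (destrin, a relative of cofilin that also severs filaments) was higher in the overexpressing channel for all 4 miRNAs, by 0.27, 0.22, 0.36 and 0.34 on the log2 scale for miR-181d, miR-565, miR-574-3p and miR-766 (adjusted p = 0.0108, 0.019, 0.00139 and 0.00557), and stood at 0.34 for miR-629*. WDR1, which helps cofilin to disassemble filaments, was higher by 0.25, 0.14, 0.24 and 0.27 (adjusted p = 0.00351, 0.033, 0.00237 and 0.00341). COTL1, a filament-binding protein of the same fold, was called lower for miR-565, miR-574-3p and miR-766 at -0.29, -0.25 and -0.30 (adjusted p = 0.00909, 0.0212 and 0.0149) and had -0.18 for miR-181d (adjusted p = 0.0665). With the probes of the gene averaged, COTL1 was at -0.03 for miR-574-3p and -0.07 for miR-766 and was not called for these. CFL2, DSTN and WDR1 were thus higher, and CFL1 and COTL1 lower or not called, for each tested miRNA. Of the 10 tested list genes of monomer binding, severing and recycling, 2 were called higher and 1 lower for each. The 1 called lower for miR-181d was TWF2, at -0.32 (adjusted p = 0.0449, limma). For miR-629*, without a test, WDR1 stood at 0.18 and COTL1 at -0.23. Ratios so alike for all 5 miRNAs cannot be told apart from a preference of the probe for one dye.

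Of the regulators of cofilin, ROCK1, a kinase upstream of the LIM kinases, was lower for miR-565 at -0.88 ± 0.25 (SE, adjusted p = 0.036), and LIMK1, which inactivates cofilin, was higher at 0.46 ± 0.14 (adjusted p = 0.0481). Without miR-565 replicate 1 ROCK1 stood at -0.26 and was still called (adjusted p = 0.00365), while LIMK1 was at 0.22 and not called. PDXP (chronophin), a phosphatase that reactivates cofilin, was lower for miR-181d at -0.47 ± 0.13 (adjusted p = 0.0424).

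In the ARP2/3 complex and its activators, which start branched filaments, ARPC2 was lower for miR-565 (-0.32, adjusted p = 0.00692), WIPF1 was higher there (0.41, adjusted p = 0.0463) and WASF1 was higher for miR-181d (0.31, adjusted p = 0.0168), miR-565 (0.26) and miR-574-3p (0.30). WIPF1 stood at 0.16 without miR-565 replicate 1 and was then not called. Of the genes that lengthen unbranched filaments, the formin INF2, named C14orf151 on the array, was higher for miR-565 and miR-574-3p at 0.42 and 0.39 (adjusted p = 0.0134 and 0.022), and VASP was lower for miR-181d at -0.37 (adjusted p = 0.0248). C3orf10 (BRK1, a subunit of the WAVE complex) was lower for miR-181d and miR-565 at -0.24 and -0.20 (adjusted p = 0.0138 and 0.024).

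SRF itself was lower for miR-574-3p (-0.22, adjusted p = 0.0133) and higher for miR-181d, miR-565 and miR-766 (0.19, 0.21 and 0.22, adjusted p = 0.0286, 0.0134 and 0.0252), and it stood at 0.16 for miR-629*. With the probes of the gene averaged, SRF was at -0.02 for miR-574-3p and 0.14 for miR-766 and was not called for either (adjusted p = 0.945 and 0.475). MKL2, the array's name for the gene of MRTF-B, was higher for miR-181d (0.30, adjusted p = 0.0206). Among SRF targets, FLNA (filamin A, a filament crosslinker) was lower for miR-181d at -0.54 ± 0.087 (SE, adjusted p = 0.00549) and miR-565 at -0.31 (adjusted p = 0.0376). ACTN1 (alpha-actinin 1) was lower for the same miRNAs at -0.28 and -0.33 (adjusted p = 0.0257 and 0.0105). FHL2, an SRF target that is also a cofactor, was higher for miR-181d, miR-565 and miR-574-3p at 0.26, 0.18 and 0.25 (adjusted p = 0.01, 0.0288 and 0.00928), so the called targets went both ways. The skeletal muscle actin ACTA1 was higher for miR-574-3p at 0.90 ± 0.20 (adjusted p = 0.0205) at a mean signal of 10 and 19 units in the knocked-down and overexpressing channels, near the limit of detection. With normexp correction and loess the ACTA1 ratio was 0.18 and was still called (adjusted p = 0.0329).

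For miR-629*, given without a test, the list genes with the lowest mean log2 ratios of one sign on all 3 arrays were FLNA at -0.45, C3orf10 at -0.42 and PDXP at -0.37. The highest were ANKRD1 at 0.63, WASF3 at 0.60 and CAPZA1 at 0.45, the first 2 of these at signals of 3 to 10 units. TMSB10, at -1.81, was below all 85 genes of the list, but it was chosen by its low ratio on these arrays. Its place there is a description only.

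**Figure D5:**
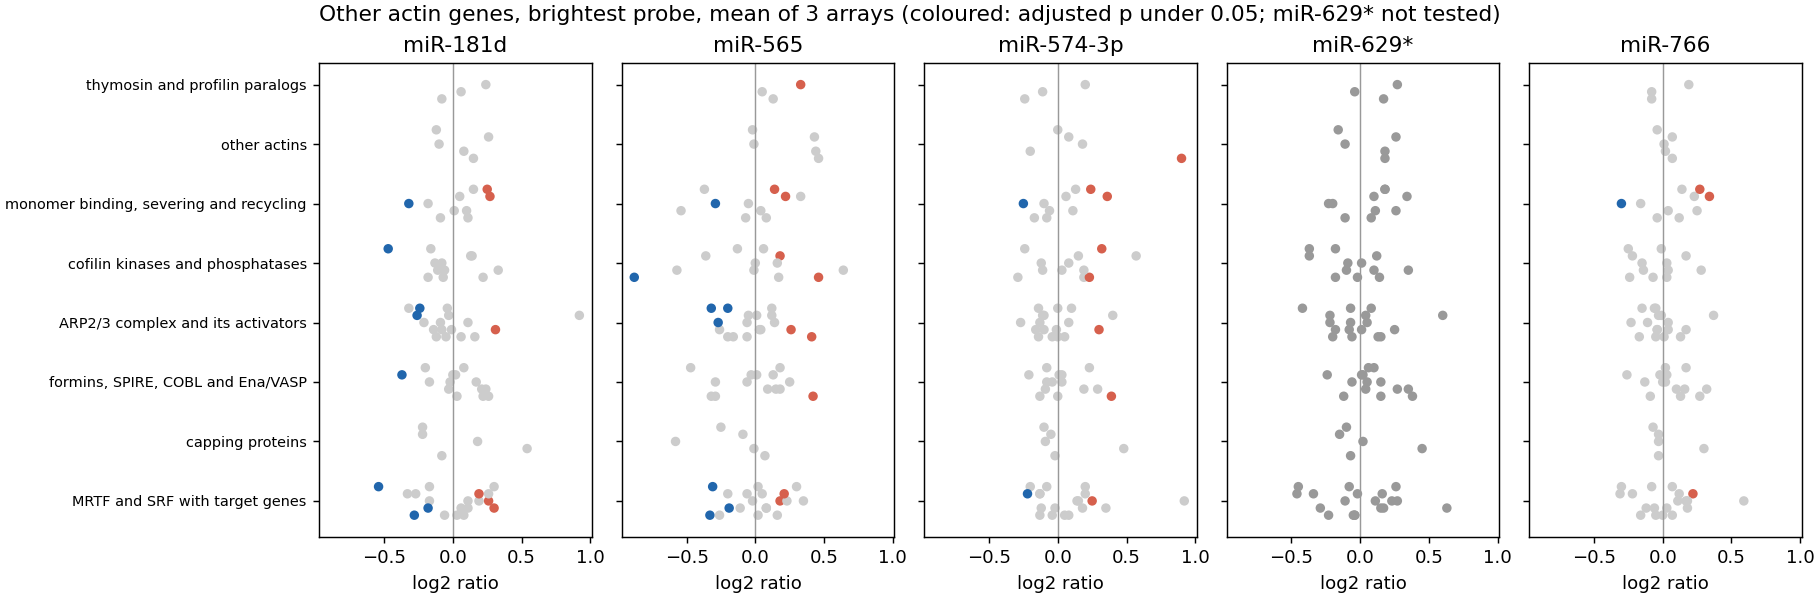
Mean log2 ratio over 3 arrays of the 85 other actin genes at their brightest probe, by functional group (rows) and miRNA (panels), with genes at an adjusted p under 0.05 in red (higher in overexpressing cells) or blue (lower) and miR-629* in grey because it was not tested. The genes lie between -0.88 and 0.92, and no group lies on one side of 0 for every miRNA.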

How the data were processed

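Total RNA of both arms of each transfection was hybridized to 15 Agilent whole human genome arrays with 2 channels. Per the file headers, Agilent Feature Extraction 9.5.3.1 subtracted background and normalized the dyes, and the deposited intensity values of each channel are its processed signals. The authors' series value table holds log10 ratios of Cy5 over Cy3 and equals the scanner's LogRatio (largest difference 0). The deposited spot flags (score columns) mark spots as well above background, saturated or outliers. No file gives sequencing depth, and precision is set by how many arrays there are.

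The members and gene lists were chosen with earlier results of these data known. Control spots (1639 per array) and 2296 outlier spots were left out, spots of a probe were averaged, and the log2 ratio of processed signals was fitted in limma 3.58.1 (R 4.3.3) over all 15 arrays, with a mean for each miRNA and a variance that follows intensity. The 31357 probes that exceeded background clearly in at least 1 channel on 3 or more arrays were tested with Benjamini-Hochberg adjustment over all of them, and a gene was read from its brightest probe (23018 genes). Calls had an adjusted p under 0.05, and intervals cover 95%. Channels were compared after quantile normalization within each dye. Named list genes were, for each miRNA, up to 3 per direction with the largest ratios among those called and of one sign on its 3 arrays (for miR-629* without the call), and other list genes are given from the same tables after their values were seen. Genes alike to TMSB10 were the 5 with the highest Pearson's r. Limma steps were tested on simulated data. Probe positions are the arrays' own (NCBI36). Alternatives covered background correction, scaling, the choice of probes, slide, replicate number and each array left out. One, leaving out miR-565 replicate 1 from the other miRNAs' fits, was added after seeing the data.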

Additional observations from a re-analysis of the deposited data

How the results depend on the processing

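The TMSB10 ratio of miR-629* stayed between -1.95 and -1.68 under all alternatives run, and leaving out each of its arrays in turn gave -1.95 to -1.68. With a gene's probes averaged, ACTB turned to -0.02 for miR-565 and -0.04 for miR-629*. Of the other member values with a test, 465 comparisons with an alternative kept their side of the threshold, 57 lost the call and 13 gained it. In the order miR-181d, miR-565, miR-574-3p and miR-766, 4, 4, 3 and 3 members and 14, 18, 10 and 4 list genes were called. With slide as a random block the members called were 1, 0, 1 and 0, the list genes of miR-565, miR-574-3p and miR-766 were 0 each, and 6 differences between miRNAs passed. In the same order, the scanner's error-weighted mean gave 2 members for miR-565, 1 for miR-574-3p and 0 for miR-766, and 4, 5 and 0 list genes for miR-181d, miR-574-3p and miR-766. Among all genes it called 1201 lower and 852 higher, 2498 and 2716, 1129 and 843, and 1176 and 604 for the 4 miRNAs. Fits on the 3 arrays of a miRNA alone gave 0 members for miR-565 and 23, 0, 38 and 8 list genes. Without the intensity trend 1 member was called for miR-766 and 11 list genes for miR-565. Of all genes, 89 were then called lower and 244 higher for miR-766, and 729 and 1951 for miR-565. Averaging a gene's probes gave 2 members for miR-181d and 1 for miR-766, and 9, 8, 4 and 1 list genes. An unadjusted p of at most 0.001 gave 7 list genes for miR-565, where 324 of all genes were called lower and 856 higher. Without miR-565 replicate 1, which raises the common spread, 39, 32 and 28 list genes were called for miR-181d, miR-574-3p and miR-766. Leaving out one array of a miRNA gave 2 to 3, 3 to 5, 1 to 2 and 0 to 2 members, 2 to 3, 20 to 30, 2 to 2 and 0 to 3 list genes, and 0 to 5 differences between miRNAs. The calls over all genes were then 114 to 413, 3747 to 6409, 241 to 495 and 43 to 192. In the knocked-down channel 3 member shifts were called, 2 to 4 with an array left out, 9 with slide as a random block, 1 with normexp and quantile normalization and 5 with median scaling. In the overexpressing channel 0 were called, 0 with an array left out and 1 with slide as a random block. For differences between miRNAs and for channel shifts, the share of all genes called under these alternatives was not counted. Except as stated for the averaged probes and single arrays, the cause was not tested. The fit with slide cannot separate slide from miRNA for miR-766, which had a slide of its own.

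The replicate numbers did not pair the arrays, since same-numbered arrays of different miRNAs deviated together weakly (median r of 0.06 over 30 pairs, from -0.39 to 0.51) and 6 of 15 arrays correlated best with their own number. With the replicate number as a block, 4, 4, 3 and 2 members and 11, 17, 9 and 3 list genes were called, 0 differences between miRNAs, 3 shifts in the knocked-down channel and 0 in the overexpressing channel, and TMSB10 of miR-629* stood at -1.81. Of all genes, 493 were called lower and 717 higher for miR-181d under this block, and 1240 and 2457 for miR-565. For miR-574-3p these were 607 and 586, and for miR-766 112 and 246.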
